A study of Arabidopsis thaliana with 30 samples.

Results

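A set of 57 genes responded to the cytokinin benzyladenine in both the roots and the shoots of wild-type Arabidopsis seedlings. The set was picked from 33199 features of the deposited table by the wild-type libraries alone. A member had a mean log2(FPKM + 1) at least 0.7 higher after benzyladenine (BA) than after mock treatment in Col roots and again in Col shoots, and in each organ its lowest BA library lay above its highest mock library. FPKM scales the fragments of a gene by its length and by a size factor of the library. Levels of different genes in a library can thus be set side by side, except for very short features such as the member MIR414. In the deposited values this factor did not follow the read totals rebuilt from them. Levels compared between roots and shoots therefore hold on the deposited scale alone. The size limit was met by 109 features in both organs, and 69 of them also had separate libraries. From these, 12 genes of the best known cytokinin-response families were dropped, namely 8 type-A response regulators, 3 cytokinin oxidases (CKX) and 1 cytokinin response factor (CRF). Of the 57 members, 55 code for protein, 28 carry a gene symbol and 12 overlap another annotated gene. The response of Col chose the members, so its values are given below as a description, and tests were made in the mutant ahp4, whose libraries the choice did not use.

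The tests used libraries of the ahp4 line alone, which the design text names as the allele ahp4-2. Seedlings of 7 days were kept for 2 h in liquid medium holding 0.1% DMSO, either alone (mock) or with 100 nM BA, and were divided at the hypocotyl into roots and shoots. There were 4 libraries each of ahp4 root mock and ahp4 root BA, and 3 each of ahp4 shoot mock and ahp4 shoot BA. The 16 Col libraries, 4 for each organ and treatment, had the same ages, times and agents. The labels do not state whether replicates were grown apart, and the p-values therefore refer to variation among these libraries, part of which may be technical.

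Cytokinins are adenine-derived plant hormones that promote cell division in shoots and restrain growth of the root meristem. They bind histidine kinase receptors, from which phosphate passes through histidine phosphotransfer proteins such as AHP4 to type-B response regulators, the transcription factors that switch on the primary response genes. Type-A regulators damp the signal, CKX enzymes degrade the hormone, and other induced genes reach into redox control, cell wall remodelling and transport.

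Rebuilt read totals ran from 9205127 to 13779004 per library. AHP4 was low but not absent in the mutant: ahp4 libraries ranged from 0.347 to 0.435 FPKM in mock roots and from 0.808 to 2.49 in mock shoots, against 0.539 to 1.71 and 2.66 to 10.6 in Col. The labels of ahp4 root mock replicate 1 contradict each other, since its title and description give ahp4 and mock while its characteristics give Col-0 and BA. Its title decided its group here, and 54 of the 55 members called in ahp4 roots (below) were also called without it. The organ labels held in all ahp4 libraries. The summed level of 8 green-tissue markers in ahp4 roots was 0.127 to 0.482% of the shoot mean in mock and 0.224 to 0.422% with BA. In ahp4 roots 7 of these markers were tested, of which 2 were higher and 1 lower with BA by limma. The summed level of 10 root markers in ahp4 shoots was 0.171 to 0.644% of the root mean in mock and 0.185 to 0.444% with BA, with 7 of the 10 above 0. In whole organs, fewer cells of a type and less RNA per cell cannot be told apart.

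The promoters of 4 members are shown because they can be read for the short sites that cytokinin response regulators are known to favour. The first pair are the members whose promoter holds AGATACG, an extended site of type-B regulators, and ASL9 (LBD3) and WOL (AHK4) are the members with a textbook place in the cytokinin pathway, chosen after their values were seen. Each window is the 250 bases before the annotated start, read 5′ to 3′ on the strand of the gene from the TAIR10.1 RefSeq genome. The windows lie at chr3:21097482-21097731 on the minus strand for AT3G57010, chr3:11527506-11527755 on the plus strand for PMAT2, chr1:5652884-5653133 on the minus strand for ASL9 and chr2:369708-369957 on the minus strand for WOL, and no other annotated gene reaches into them. Capitals mark matches on either strand of the core AGATT, of the cores AGATC and GGATT, of the longer AGATACG or of the palindrome AAGATCTT.
AT3G57010: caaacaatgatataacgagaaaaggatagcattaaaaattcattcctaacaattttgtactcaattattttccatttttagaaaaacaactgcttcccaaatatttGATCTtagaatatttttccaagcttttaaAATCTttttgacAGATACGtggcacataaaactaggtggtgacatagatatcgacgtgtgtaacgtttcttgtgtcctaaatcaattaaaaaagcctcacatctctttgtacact
PMAT2: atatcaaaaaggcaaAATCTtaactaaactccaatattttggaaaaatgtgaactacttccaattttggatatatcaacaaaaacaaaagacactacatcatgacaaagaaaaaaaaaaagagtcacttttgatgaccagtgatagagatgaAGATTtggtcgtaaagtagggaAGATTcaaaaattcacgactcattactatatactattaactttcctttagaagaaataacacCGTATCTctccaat
ASL9 (LBD3): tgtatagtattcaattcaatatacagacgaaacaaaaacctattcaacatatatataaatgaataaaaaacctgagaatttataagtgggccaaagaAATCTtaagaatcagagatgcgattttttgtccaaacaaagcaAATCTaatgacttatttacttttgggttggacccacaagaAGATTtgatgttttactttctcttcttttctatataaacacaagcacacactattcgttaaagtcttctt
WOL (AHK4): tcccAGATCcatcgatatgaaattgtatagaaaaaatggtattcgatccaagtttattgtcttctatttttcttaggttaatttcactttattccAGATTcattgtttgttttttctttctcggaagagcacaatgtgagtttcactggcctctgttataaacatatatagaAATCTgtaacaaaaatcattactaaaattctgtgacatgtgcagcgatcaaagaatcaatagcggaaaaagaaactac

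The short core sites were about as common in the members as elsewhere. AGATT, searched on both strands, occurred in 65.5% of the 55 member promoters and in 63.7% of all 27443 promoters of the same length. AGATC occurred in 29.1% against 26.6%, and GGATT in 38.2% against 38.0%. The longer AGATACG was in 2 member promoters (3.64%), against 1.69% of all promoters. AAGATCTT was in no member promoter and in 0.809% of all. AGATACG shares its first bases with the cores but holds none of them, while each AAGATCTT also holds AGATC. A match is a description of these letters and says nothing of binding.

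In ahp4 roots BA raised nearly the whole set. Of the 57 members, all tested, 55 were called higher and 0 lower by limma (Benjamini-Hochberg adjusted p under 0.05 over 18909 features), where 10.7% of all features tested were called higher and 8.45% lower. The lowest of 4 BA libraries lay above the highest of 4 mock libraries for 54 members, as it did for 12.2% of all features tested. The median change was 1.17 on the log2(FPKM + 1) scale, with a range from 0.24 to 2.60 and quartiles of 0.99 and 1.80, while the median of all features tested was -0.01. A change of 1 or more on this scale was reached by 41 members. Within the set 10 members had fewer than 3 mock libraries at 1 FPKM and passed the low-value filter through their BA libraries, so their calls lean on the choice of filter: AT2G30540, PMAT2, CDT1, AT4G15670, AT4G15680, AT4G15690, AT5G05965, AT2G34510, AT5G22390 and AT5G45950. With the filter set on mock libraries instead, 43 of 45 tested members were called, beside 1850 of 17465 features tested.

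In ahp4 shoots the median response was lower and fewer members passed the test, which had 3 libraries a group where roots had 4. Of 55 members tested, 31 were called higher and 0 lower, where 2.14% of 17385 features tested were called higher and 0.449% lower. The 2 members below the filter were AT1G58170 and AT3G45710. Every BA library lay above every mock library for 46 members, beside 11.1% of all features tested. The median change was 0.94, with a range from 0.27 to 2.69, and 26 members reached a change of 1. The median of all features tested was -0.05. In shoots 7 members passed the filter through their BA libraries, namely AT2G30540, ASL9, AT3G57010, GLP7, AT5G65030, AT5G05965 and AT1G65690. With the filter on mock libraries 28 of 48 members were called, beside 362 of 16398 features tested. The count rested on single libraries more than in roots. It was 17 without BA replicate 2 or without BA replicate 3 and 20 without mock replicate 2. Over all 6 libraries left out in turn it was 17 to 26. Of all features tested, 372 were called higher in the main fit. Without BA replicate 2, BA replicate 3 or mock replicate 2 these were 84, 90 and 109. They were 131 without mock replicate 3, 349 without mock replicate 1 and 381 without BA replicate 1.

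All 57 members had a higher mean with BA than with mock in both ahp4 organs. The 31 called in shoots were also called in roots, where 0.557% of features tested in both organs were called higher in both. A further 24 were called in roots alone, none in shoots alone, and GRXS13 and AT3G62920 in neither. A member called in one organ alone is not thereby shown to differ between organs, which was tested separately below. Library by library, the median member stood 1.15 to 1.41 above the mock mean in the 4 root BA libraries on the log2 scale, and all 57 members exceeded their mock mean in each. In the shoot BA libraries the median member stood 1.06, 0.91 and 0.85 above, with 57, 55 and 53 members above their mock mean. The mock libraries stayed between -0.064 and 0.116.

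**Figure D1:**
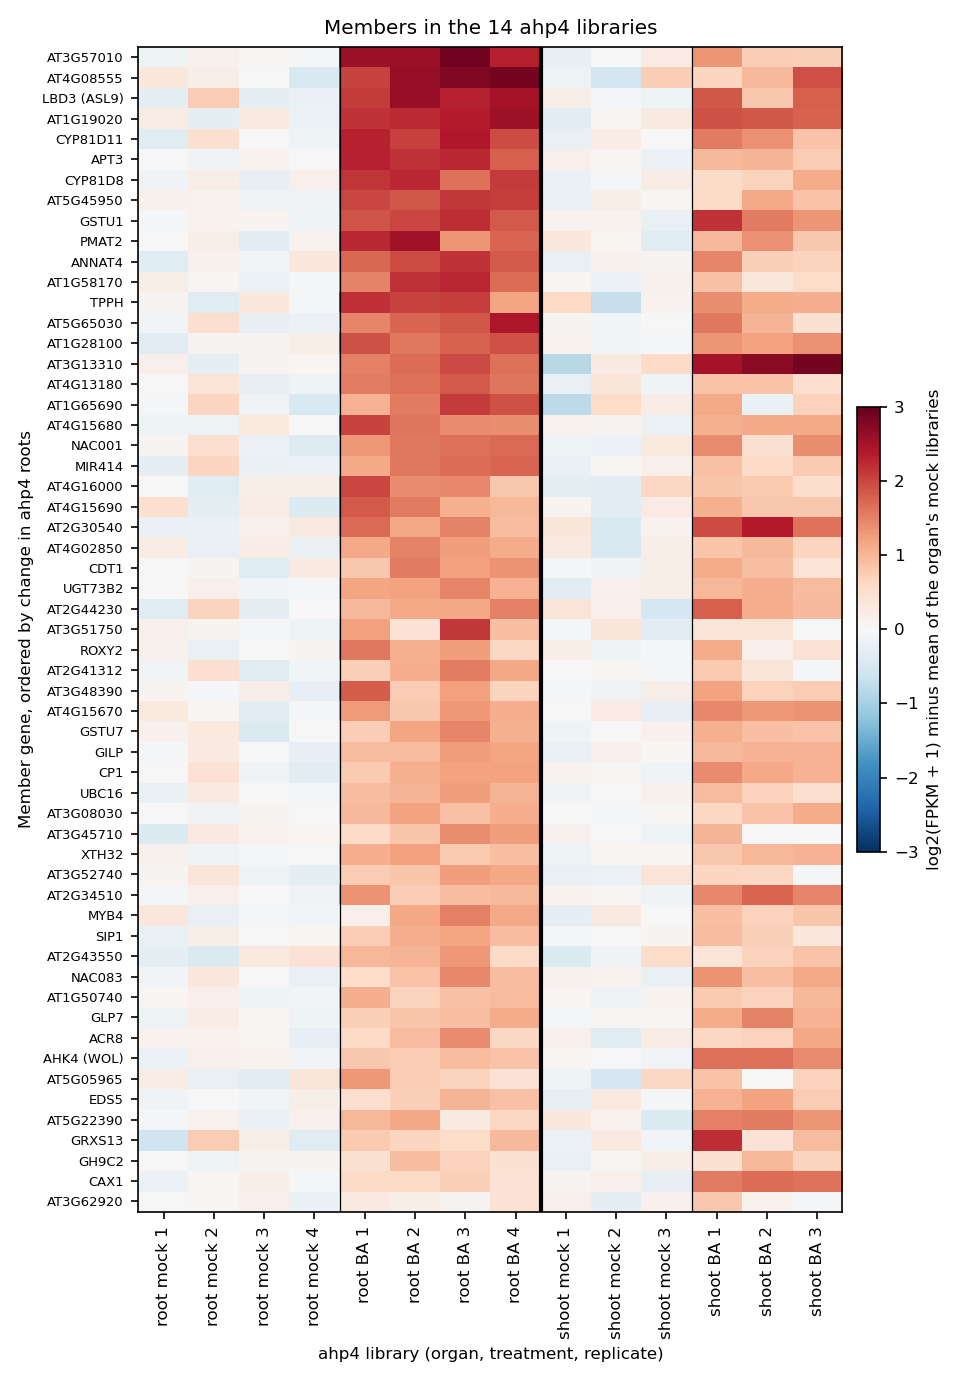
Level of each of the 57 members (rows, ordered by the change in ahp4 roots) in the 14 ahp4 libraries (columns), as log2(FPKM + 1) minus the mean of the mock libraries of the same organ. The root BA columns are red in nearly every row, and the shoot BA columns are paler in most rows but darker in others, among them AT3G13310, WOL (AHK4) and CAX1.

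Beside the Col values that chose the set, the ahp4 values were of similar size. The Col medians were 1.24 in roots and 1.13 in shoots, and the Col change was the larger one for 31 members in roots and 34 in shoots. Since the Col values had to pass a limit and the ahp4 values did not, no test was made of this difference. Just inside the limit were AT1G50740, with Col changes of 0.84 in roots and 0.71 in shoots, AT5G45950 with 1.92 and 0.71, and GH9C2 with 0.71 and 0.84. Just outside it were AT2G41330 with 0.80 and 0.70, HK1 with 1.33 and 0.69, and AT3G62930 with 0.69 and 1.75.

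**Figure D2:**
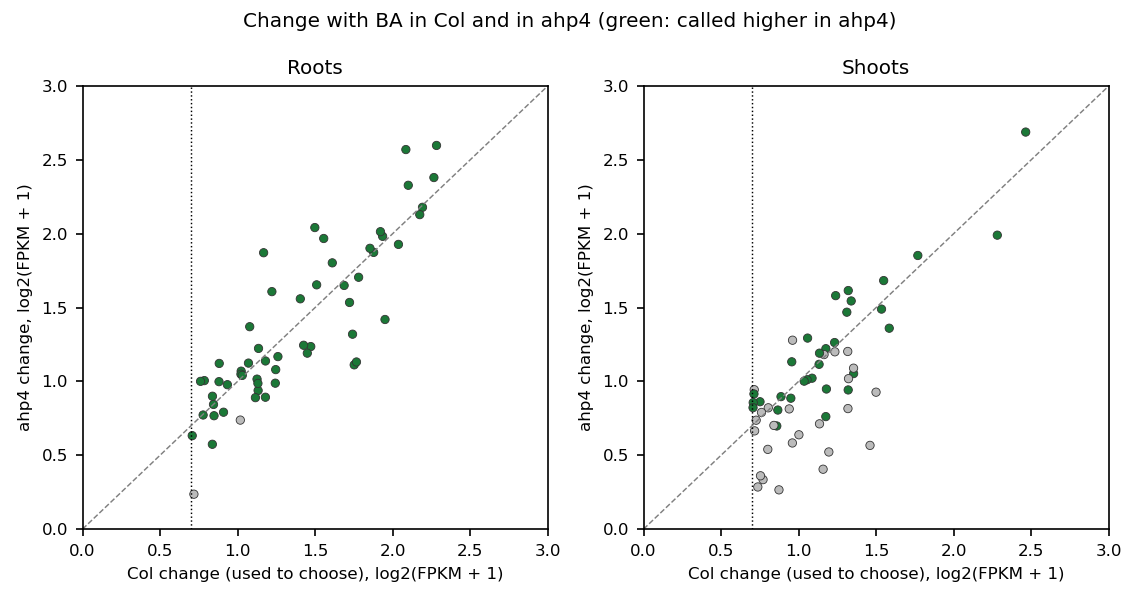
Change of each member with BA in ahp4 (vertical axes) against its change in Col (horizontal axes) in roots (left) and shoots (right), both in log2(FPKM + 1), with the selection limit of 0.7 dotted and equality dashed. Green points were called higher in ahp4, which were 55 in roots and 31 in shoots, and the points lie on both sides of equality.

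The one receptor in the set was WOL (AHK4, AT2G01830), a membrane histidine kinase that binds cytokinin. In ahp4 shoots its FPKM was 1.37, 1.28 and 1.13 in mock and 6.13, 6.12 and 5.08 with BA. In ahp4 roots it was 16.0, 20.1, 19.5 and 17.1 in mock and 32.3, 31.6, 35.7 and 33.7 with BA. No BA library overlapped a mock library in either organ, and roots started from the higher level. The change was 1.58 ± 0.16 (SE) in shoots (limma adjusted p = 0.00391) and 0.84 ± 0.09 in roots (adjusted p = 0.000231). The other receptors did not follow: HK2 fell in roots by 0.75 (9.12 ± 0.72 to 5.06 ± 1.02 FPKM, SD, n = 4, limma adjusted p = 0.00245), and HK3 changed by 0.31 there (adjusted p = 0.108). In shoots WOL was the sole called receptor of 3 tested.

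ASL9 (LBD3, AT1G16530), a LOB-domain transcription factor known to be induced by cytokinin, was among the strongest root responders. Its root FPKM was 8.05, 17.6, 7.88 and 8.54 in mock and 45.6, 66.0, 52.9 and 61.0 with BA. Its shoot FPKM was 0.449, 0.239 and 0.170 in mock and 3.67, 1.24 and 3.45 with BA. Mock replicate 2 stood apart among the root mock libraries but stayed under every BA library, and in shoots no mock library reached 1 FPKM, so that the shoot test was reached through the BA libraries. The changes were 2.38 ± 0.23 in roots (limma adjusted p = 0.000119) and 1.49 ± 0.31 in shoots (adjusted p = 0.0442). The shoot call was lost in 6 of 11 alternative fits, among them each that left out a mock library, with adjusted p up to 0.155.

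The pathway genes left out of the set show what surrounds it. Type-A regulators rose in 10 of 10 tested cases in ahp4 roots and 8 of 8 in shoots, with median changes of 1.82 and 2.48 and the highest values for RR5 in roots (2.83) and ARR15 in shoots (4.03). Of the CKX genes, 4 of 6 rose in roots and 2 of 3 in shoots. Of the CRF genes, 5 of 10 rose in roots, led by CRF7 (0.86) and CRF5 (0.56), and 3 of 11 in shoots, led by CRF2 (1.73) and CRF5 (1.67). Among the phosphotransfer proteins AHP1 (0.54) was the one riser of 5 tested in roots. Among the type-B regulators RR12 (0.72) was the one riser of 5 tested there, out of 11 listed. Over all features tested in roots, 10.7% were called higher. None of the 4 phosphotransfer proteins and 5 type-B regulators tested in shoots was called. Among hormone-modifying enzymes 4 of 5 rose in roots, with CYP735A2, which makes trans-zeatin types, changing by 2.44, and 1 of 3 in shoots, UGT76C2 (1.44), an N-glucosylating enzyme. Of the other textbook cytokinin-induced genes, a list that also holds the member ASL9, 4 of 7 rose in roots and 5 of 7 in shoots.

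**Figure D3:**
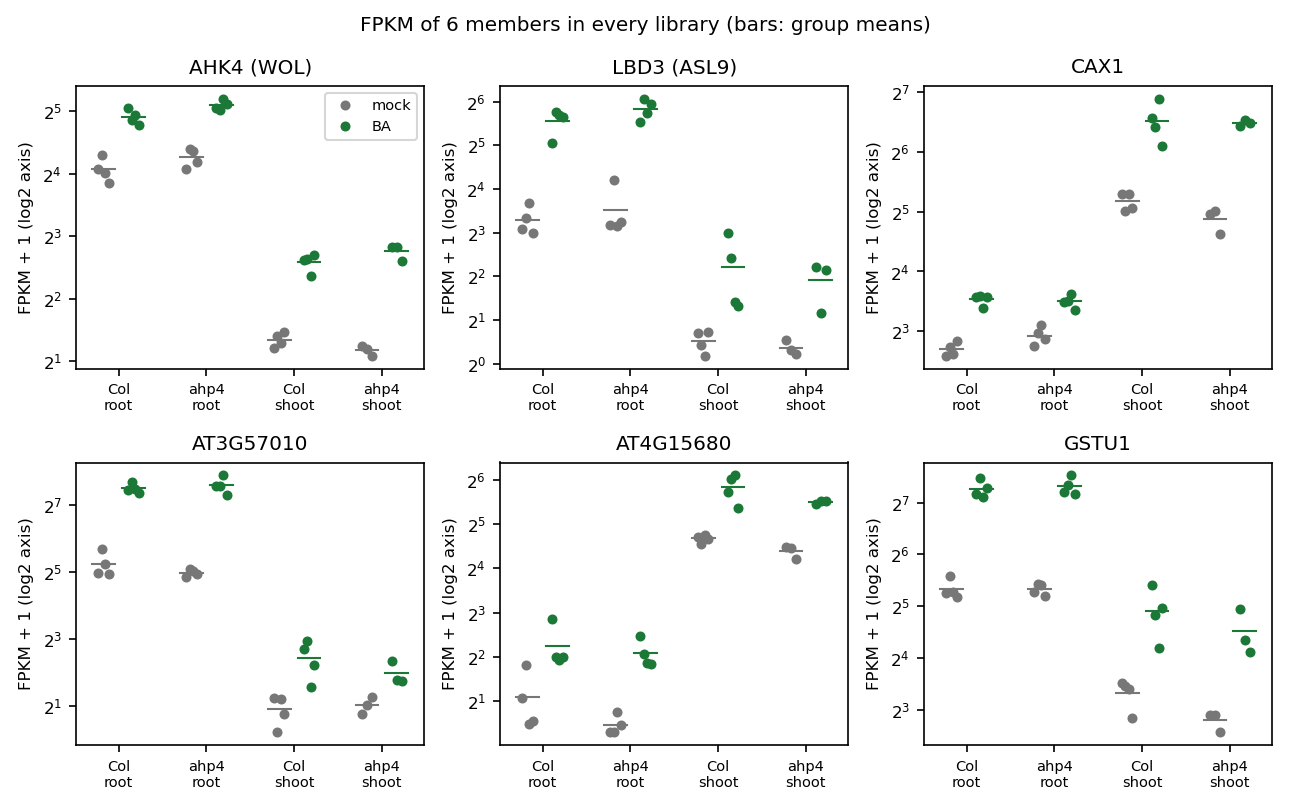
FPKM + 1 on a log2 axis of 6 members in each library of Col and ahp4 roots and shoots, mock in grey and BA in green, with bars at group means. WOL (AHK4), AT3G57010, ASL9 (LBD3) and GSTU1 sit higher in roots while CAX1 and AT4G15680 sit higher in shoots, and for each of the 6 the ahp4 BA libraries lie above the ahp4 mock libraries in both organs.

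Glutaredoxins were the largest family. They are small thiol oxidoreductases, and the CC type to which 6 members belong is found in land plants. The 6 make up 10.5% of the set, where glutaredoxin and thioredoxin names make up 0.521% of all features tested, and they are 6 of the 21 CC-type genes listed. A row of them lies on chromosome 4 on the plus strand. AT4G15670 spans chr4:8929031-8929813, AT4G15680 chr4:8931617-8932317 and AT4G15690 chr4:8934296-8934961, with 1803 and 1978 bases between neighbours. They are close copies of each other, so reads could have been divided between them, and their values are uncertain to that extent.

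The 3 members on chromosome 4 had higher levels in shoots than in roots. AT4G15680 had shoot FPKM of 21.5, 21.0 and 17.5 in mock and 42.6, 45.0 and 45.1 with BA. Its root FPKM was 0.234, 0.233, 0.697 and 0.383 in mock and 4.59, 3.19, 2.66 and 2.60 with BA. The BA libraries lay above the mock libraries in both organs, though the root level with BA was 7.36% of the shoot level. The changes were 1.61 ± 0.18 in roots (limma adjusted p = 0.00031) and 1.12 ± 0.11 in shoots (adjusted p = 0.00391). AT4G15670 changed by 1.12 in roots and 1.36 in shoots and AT4G15690 by 1.37 and 0.90, all called, and their root BA levels were 5.71% and 4.81% of the shoot BA levels. At most 1 of 4 mock root libraries of the 3 genes reached 1 FPKM, so they were tested in roots through their BA libraries alone. The green-tissue markers in the same root BA libraries were at 0.224 to 0.422% of the shoot mean, and a part of shoot tissue in the root values was not tested. The adjoining genes AT4G15660 and AT4G15700 are not members. AT4G15660 was called in roots (0.87, limma adjusted p = 0.0118) and not in shoots (0.96, adjusted p = 0.0639), and AT4G15700 in neither organ (0.58, adjusted p = 0.169, and 0.45, adjusted p = 0.0997).

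The other CC-type members were less alike. AT2G30540 was at 0, 0, 0.260 and 0.381 FPKM in root mock and 2.74, 1.56, 2.24 and 1.18 in root BA, and it had 2.49, 0.948 and 1.88 in shoot mock and 9.44, 13.1 and 7.33 in shoot BA. It was near the lower limit of measurement in mock roots and separate between treatments in both organs, though tested in both through its BA libraries, with changes of 1.32 ± 0.21 (limma adjusted p = 0.0019) and 1.99 ± 0.26 (adjusted p = 0.00915). ROXY2, known to act with ROXY1 in anther development, was called in roots (1.14, limma adjusted p = 0.00192) and not in shoots (0.57, adjusted p = 0.257), where mock and BA libraries overlapped. GRXS13 was not called in either organ and is described with the exceptions below. Over the whole CC-type list, 7 of 12 tested genes rose in roots, and in shoots 5 of 14 rose and 1 fell, which was AT3G21460.

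The set held 2 glutathione transferases (3.51% of members, 0.243% of features tested), 2 cytochrome P450 genes (3.51% and 0.814%) and 1 UGT glucosyltransferase (1.75% and 0.541%). GSTU1 (AT2G29490), a tau-class glutathione transferase, had root FPKM of 37.5, 42.0, 41.6 and 35.5 in mock and 146, 161, 183 and 142 with BA. In shoots it had 6.43, 6.45 and 4.91 in mock and 29.7, 19.4 and 16.3 with BA. Treatments were fully apart in both organs, with changes of 1.98 ± 0.10 (limma adjusted p = 5.01e-06) and 1.68 ± 0.21 (adjusted p = 0.00831). Its relative GSTU7, which overlaps 2 other genes on the opposite strand, changed by 1.11 in roots and 0.94 in shoots, both called. Both transferases have close relatives with which reads could be shared.

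Both cytochrome P450 genes are of the CYP81D subfamily. CYP81D11 had root FPKM of 20.9, 38.3, 26.9 and 24.7 in mock and 138, 116, 146 and 108 with BA, and shoot FPKM of 14.2, 19.6 and 17.1 in mock and 51.7, 45.4 and 31.0 with BA. The treatments did not overlap, and the changes of 2.18 ± 0.17 and 1.26 ± 0.19 were called in both organs (limma adjusted p = 3.99e-05 and 0.0159). The gene overlaps HMG on the opposite strand, which was at 30.4 FPKM in mock roots and 35.2 with BA. CYP81D8 was lower, with 1.14 to 1.92 FPKM in mock roots and 6.88 to 11.2 with BA, and it was called in roots (2.04) and not in shoots (0.79, limma adjusted p = 0.0598). UGT73B2, a glucosyltransferase of flavonoids, changed by 1.22 in roots and 1.01 in shoots and was called in both. PMAT2, a malonyltransferase of phenolic glucosides and a bearer of the AGATACG site shown above, went from 0.640, 0.833, 0.293 and 0.752 FPKM to 6.81, 8.21, 3.07 and 4.45 in roots. Its libraries were apart in shoots too, from 2.50 to 4.57 in mock and 6.87 to 10.7 with BA. Its changes were 1.97 ± 0.24 (limma adjusted p = 0.000527) and 1.05 ± 0.22 (adjusted p = 0.0434), the second lost in 6 of 15 alternative fits. No mock root library of PMAT2 reached 1 FPKM, so its root test was reached through the BA libraries.

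The transcription factors of the set beside ASL9 were NAC001, NAC083 and MYB4. By annotated names, NAC genes made up 3.51% of the set and 0.362% of all features tested, MYB genes 1.75% and 0.556%, and LBD genes 1.75% and 0.114%. No member was named WRKY, bHLH, ERF, GATA, homeobox or zinc finger, classes that ranged from 0.164% (GATA) to 1.86% (zinc finger) of features tested. NAC083 (VNI2), a factor known to restrain xylem vessel formation, had root FPKM of 69.0, 90.4, 72.8 and 62.4 in mock and 107, 134, 198 and 138 with BA. In shoots it had 33.5, 33.2 and 26.1 in mock and 79.6, 58.5 and 69.2 with BA. It was higher with BA in every library, with called changes of 0.94 ± 0.18 in roots (limma adjusted p = 0.0052) and 1.13 ± 0.14 in shoots (adjusted p = 0.0085). NAC001 was called in roots (1.56) and not in shoots (1.09, limma adjusted p = 0.0723).

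MYB4, a repressor of phenylpropanoid genes, was the least settled of them. Its root FPKM was 20, 13.3, 14.8 and 14.7 in mock and 17.4, 35.7, 45.9 and 35.6 with BA. BA replicate 1 fell inside the mock range, while the other 3 lay above it. The changes of 0.99 ± 0.25 in roots (limma adjusted p = 0.021) and 0.81 ± 0.15 in shoots (adjusted p = 0.0325) were called, and 5 of 17 alternative fits in roots and 8 of 15 in shoots ended the call. The root call was lost without BA replicate 2, 3 or 4 or without mock replicate 3 or 4 (limma adjusted p up to 0.058), and the shoot call without any 1 library except mock replicate 2 (up to 0.110).

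Other named members have single known roles in calcium, metal or sugar biology. CAX1, an exchanger that moves calcium into the vacuole, had shoot FPKM of 30.2, 31.4 and 23.7 in mock and 85.2, 91.7 and 88.8 with BA. In roots it had 5.72, 6.87, 7.57 and 6.31 in mock and 10.3, 10.4, 11.4 and 9.21 with BA. It was apart in both organs and changed by 1.62 ± 0.12 in shoots (limma adjusted p = 0.00275) and 0.57 ± 0.10 in roots (adjusted p = 0.0039), the smallest root change among those called. CP1, a calcium-binding protein, rose by 1.07 in roots and 1.19 in shoots. CDT1, a small cysteine-rich protein of cadmium tolerance, was called in roots (1.24) and not in shoots (0.82, limma adjusted p = 0.0541), though its shoot libraries did not overlap. TPPH, a trehalose-6-phosphate phosphatase, was called in roots (1.87) and not in shoots (1.20, limma adjusted p = 0.0675).

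Further members act singly in the cell wall, at membranes or in ubiquitin transfer. XTH32, which cuts and rejoins xyloglucan, changed by 1.01 in roots and 0.95 in shoots and was called in both. GH9C2, an endoglucanase of the wall, had root FPKM from 47.9 to 57.2 in mock and from 73.9 to 103 with BA, and was called in roots (0.63) and not in shoots (0.70, limma adjusted p = 0.0766). GILP, a membrane-associated LITAF-domain protein, changed by 1.08 in roots and 1.02 in shoots, both called. GLP7, a germin-like protein, had shoot FPKM of 0.188, 0.268 and 0.285 in mock and 1.71, 2.51 and 1.58 with BA, and root FPKM from 3.82 to 5.34 in mock and from 7.92 to 10.7 with BA. Its changes of 1.22 in shoots (limma adjusted p = 0.0267) and 0.89 in roots (adjusted p = 0.000918) were called, the shoot test being reached through the BA libraries, since no mock shoot library was at 1 FPKM. UBC16, a ubiquitin-conjugating enzyme, changed by 1.05 in roots and 0.70 in shoots, both called, and the shoot call was lost in 7 of 15 alternative fits.

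One member, MIR414, is a microRNA locus. The libraries hold polyadenylated RNA, so its values are fragments on the annotated precursor and not the mature microRNA. Its root FPKM was 182, 353, 195 and 200 in mock and 494, 670, 719 and 751 with BA. Its shoot FPKM was 99.8, 120 and 129 in mock and 214, 176 and 201 with BA. Mock replicate 2 stood apart in roots, and no BA library overlapped a mock library in either organ. The changes were 1.53 ± 0.21 (limma adjusted p = 0.000997) and 0.76 ± 0.13 (adjusted p = 0.0209). Short features give high FPKM from few fragments, so this level is not to be set beside those of longer genes.

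Several shoot calls rested on single libraries, and the calls over all features also fell in most of these fits, as given above. Without BA replicate 2, without BA replicate 3 or without mock replicate 2 the calls of GSTU7 (limma adjusted p up to 0.064), MIR414 (up to 0.0844) and AT4G15690 (up to 0.082) were lost. UGT73B2 lost its call without BA replicate 2 or 3 (up to 0.081), CYP81D11 without BA replicate 2 or mock replicate 3 (up to 0.0816), APT3 without BA replicate 2 (0.0551) and AT1G50740 without BA replicate 3 or mock replicate 2 (up to 0.0704). GLP7 lost it without any 1 mock library (up to 0.100). GLP7 and ASL9 fell below the low-value filter, and were not tested, without any 1 BA library. UBC16 (up to 0.138) and AT5G45950 (up to 0.130) lost it without BA replicate 2 or 3 or any 1 mock library, and PMAT2 (up to 0.148) without any 1 library except mock replicate 1. In the other direction, NAC001 was called without BA replicate 2, CDT1 without BA replicate 3 and TPPH without mock replicate 1. The shoot calls of WOL, CAX1, GSTU1, AT2G30540, AT4G15680, AT4G15670, GILP, CP1 and NAC083 held in every alternative fit run.

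The response was not of one size in both organs. It was larger in roots for 42 of the 57 members, with a median root minus shoot difference of 0.35 on the log2 scale against 0.04 over all features tested. Across the 57 members the root and shoot changes had a Pearson correlation of 0.24 and a Spearman correlation of 0.18, over values that share the libraries of each organ. The choice by a minimum Col change in both organs narrows the range of these changes, so the correlations describe the set alone. Root and shoot libraries may come from the same seedlings, but the fit over both organs took them as independent. By limma on the 14 ahp4 libraries, 7 members (12.3%) had a larger response in roots, beside 4.42% of all features tested. A larger response in shoots was called for 2 members (3.51%), near the 4.04% of all features tested.

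**Figure D4:**
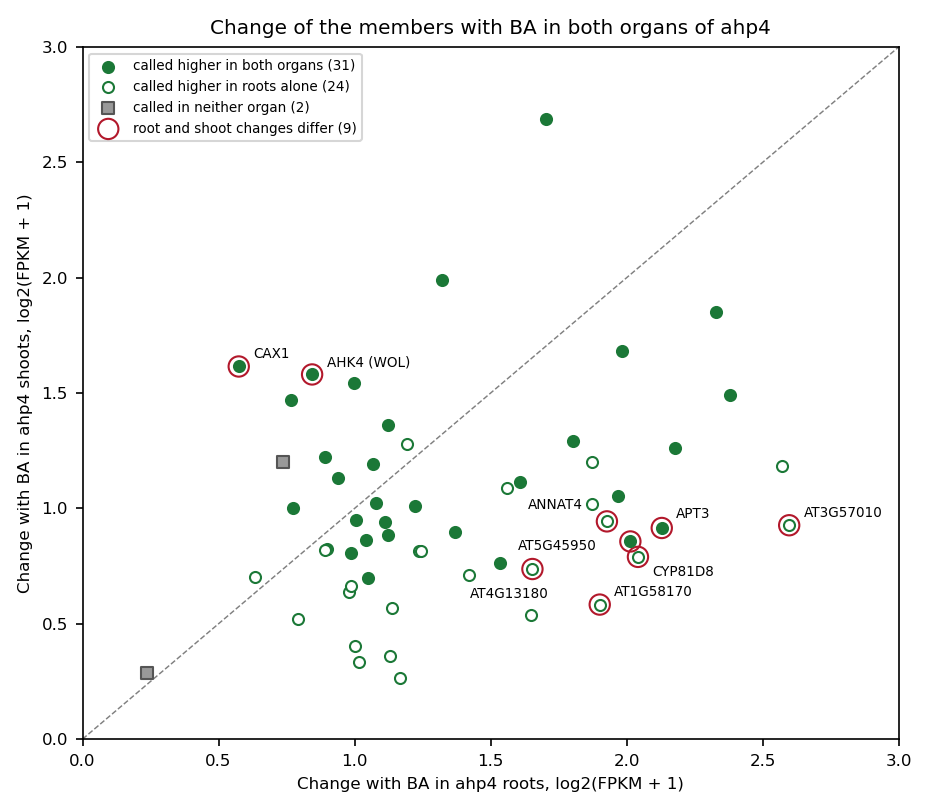
Change of the 57 members with BA in ahp4 shoots (vertical axis) against ahp4 roots (horizontal axis), in log2(FPKM + 1), with equality dashed. Filled circles (31) were called in both organs, open circles (24) in roots alone and squares (2) in neither, and red rings mark the 9 members whose root and shoot changes differed, 7 below the line and 2 above it.

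The largest difference was in AT3G57010, annotated as a calcium-dependent phosphotriesterase and the other bearer of AGATACG. Its root FPKM was 27.4, 33.0, 31.4 and 29.6 in mock and 187, 185, 233 and 155 with BA. In shoots it was 0.701, 1.03 and 1.38 in mock and 4.03, 2.38 and 2.33 with BA. Treatments were apart in both organs, and the root change was the highest of the set, 2.60 ± 0.12 (limma adjusted p = 4.51e-06), against 0.93 ± 0.23 in shoots (adjusted p = 0.081). The difference was 1.67 ± 0.23 (limma adjusted p = 0.00125). With the rebuilt reads in place of FPKM + 1 this call was lost (adjusted p = 0.194), and on the main scale the change of a gene near 1 FPKM is understated.

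APT3 (AT4G22570), of the adenine phosphoribosyltransferases that turn adenine and cytokinin bases into nucleotides, showed the pattern at high levels in both organs. Its root FPKM was 16.5, 15.2, 17.8 and 16.4 in mock and 85.7, 77.2, 82.4 and 59.2 with BA. Its shoot FPKM was 38.6, 35.7 and 30.5 in mock and 69.2, 71.1 and 59.7 with BA. Roots thus held less than shoots in mock, at 47.2% of the shoot mean, and 114% of it with BA. The changes were 2.13 ± 0.12 in roots and 0.92 ± 0.12 in shoots, both called, and the difference of 1.21 ± 0.17 (limma adjusted p = 0.00141) was called under each of 22 alternative fits. CYP81D8, introduced above, had a difference of 1.25 ± 0.25 (limma adjusted p = 0.00894), which also held under all 22.

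AT5G45950, a GDSL-type lipase, was almost silent in mock roots. Its FPKM there was 0.176, 0.175, 0 and 0, and 3.34, 2.96, 3.71 and 3.54 with BA, while shoots had 8.74, 11.8 and 10.9 in mock and 15.9, 24.2 and 19.6 with BA. Both organs were apart, from unlike starting levels, the root test being reached through the BA libraries, and the difference in response was 1.16 ± 0.21 (limma adjusted p = 0.0047). AT1G58170, a dirigent-like protein, had 3.51 to 4.78 FPKM in mock roots and 13.4 to 23.7 with BA, but at most 1.46 in any ahp4 shoot library. Its difference of 1.32 ± 0.27 (limma adjusted p = 0.00932) was lost with a pseudocount of 0.1 and with the rebuilt reads, with adjusted p up to 0.743. AT4G13180 (0.92, limma adjusted p = 0.0256) and ANNAT4, of the calcium-dependent membrane-binding annexins (0.98, adjusted p = 0.041) complete the 7 and were named after their values were seen. The call of AT4G13180 was lost without root BA replicate 3, root mock replicate 3 or 4, shoot BA replicate 3 or shoot mock replicate 2, with adjusted p up to 0.0663. For ANNAT4, 14 of 22 alternative fits ended it, with adjusted p up to 0.190, and 9 of these left out 1 library: root BA replicate 2, 3 or 4, root mock replicate 1 or 3, shoot BA replicate 2 or 3, or shoot mock replicate 2 or 3.

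The members with a larger response in shoots were CAX1 and WOL. The root minus shoot difference was -1.04 ± 0.16 for CAX1 (limma adjusted p = 0.00181) and -0.74 ± 0.14 for WOL (adjusted p = 0.00733), and both were called under each of 22 alternative fits. They differ in where they are expressed, since CAX1 in mock roots was at 23.3% of its shoot level while WOL in mock roots was at 1441% of its shoot level. AT3G13310, a J-domain protein and the highest shoot change of the set, went from 4.92, 11.7 and 14.8 FPKM to 58.8, 67.8 and 76.3 in shoots and from 77.3, 56.8, 73.0 and 72.3 to 200, 223, 277 and 221 in roots. Treatments were apart in both organs. Its changes of 2.69 ± 0.32 and 1.71 ± 0.12 were called (limma adjusted p = 0.00614 and 2.95e-05), and their difference was not (-0.98 ± 0.35, adjusted p = 0.0991).

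Without BA the members were expressed in either organ. The limma fit again took root and shoot libraries as independent. By it 31 members (54.4%) were higher in mock roots than in mock shoots, where 38.4% of all features tested were. In mock shoots 18 members (31.6%) were higher, close to the 32.5% of all features tested. Scaling by read totals moved the median root minus shoot level of all features from 0.07 to 0.48 on the log2 scale. The members then split into 35 and 15, while of all 20256 features tested 11566 were higher in roots and 4202 in shoots. At the root end was AT3G45710, a transporter of the major facilitator superfamily, with 58.3 to 93.6 FPKM in mock roots and 0.641 to 1.02 in mock shoots. At the shoot end were AT4G15690, with 0.269 to 1.35 and 30.6 to 45.3 FPKM, AT4G15680, with 0.233 to 0.697 and 17.5 to 21.5 FPKM, and AT5G45950.

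The exceptions in ahp4 were GRXS13 and AT3G62920. GRXS13, a CC-type glutaredoxin, had root FPKM of 47.6, 124, 83.5 and 56.8 in mock and 127, 114, 107 and 143 with BA. Its shoot FPKM was 5.39, 7.73 and 5.87 in mock and 32.8, 8.80 and 13 with BA. The root groups overlapped through mock replicate 2, and the shoot groups did not overlap but BA replicate 1 was far above the others. The changes were 0.74 ± 0.25 in roots (limma adjusted p = 0.0677) and 1.20 ± 0.39 in shoots (adjusted p = 0.153), and without root mock replicate 2 the root change was called (adjusted p = 0.00399). AT3G62920 changed by 0.24 ± 0.11 in roots (limma adjusted p = 0.148) and 0.29 ± 0.23 in shoots (adjusted p = 0.547), and its groups overlapped in both organs.

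Some members are neighbours of the dropped families. Within 10 kb of a type-A regulator, CKX or CRF gene lay 4 of the 57 members (7.02%), against 130 of 20418 other expressed features (0.637%). GLP7 lies 1628 bases from ARR4 on the same strand, and the non-coding AT2G41312 lies 642 bases from RR3 on the same strand. AT1G19020 is 9127 bases from ARR7, and UBC16 overlaps CKX5 on the opposite strand. Whether reads of a neighbour entered these members was not tested. In ahp4 roots GLP7 was at 4.43 FPKM in mock and 9.07 with BA, far below ARR4 at 65.2 and 177, and AT2G41312 at 5.42 and 13 was below RR3 at 31.8 and 54.9. UBC16 at 20.9 and 44.3 was above CKX5 at 1.60 and 6.01. Of the neighbours that are not members, 17 of 114 (14.9%) were called higher in ahp4 roots, where 10.7% of all features tested were, and 4 of 121 (3.31%) in shoots, where 2.14% were.

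AT1G19020, which carries the annotated name of a phosphatidyltransferase, was one of the firmest responders of the set. It had root FPKM of 20.8, 14.4, 21.6 and 15.6 in mock and 84.2, 87.7, 95.4 and 109 with BA. Shoots had 11.6, 15.4 and 18.1 in mock and 58.3, 57.0 and 53.4 with BA. No library overlapped, and the changes were 2.33 ± 0.14 (limma adjusted p = 9.32e-06) and 1.85 ± 0.15 (adjusted p = 0.00275). The overlapping AT1G19025 on the same strand was at 1.21 FPKM in mock roots and 1.62 with BA. AT2G41312 was called in roots (1.13, limma adjusted p = 0.00412) and not in shoots (0.36, adjusted p = 0.424).

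The remaining members span functions from wall-associated DUF642 proteins to uncharacterised short proteins. AT2G34510, of the DUF642 family, was a shoot gene with 14.3 to 17 FPKM in mock and 44.4 to 54.9 with BA, and its root level rose from between 0.687 and 1.04 to between 2.04 and 3.65. AT3G08030, of the same family, rose by 1.04 in roots and 0.86 in shoots from 50.7 to 57.1 and 41.5 to 43.3 FPKM in mock. EDS5, which exports a precursor of salicylic acid from plastids, rose by 0.77 in roots and 1.00 in shoots. SIP1, a raffinose synthase, and ACR8, an ACT-domain protein, were called in roots (0.99 and 0.89) and not in shoots (0.67 and 0.82, limma adjusted p = 0.077 and 0.0913). AT4G08555, an uncharacterised protein, had the second highest root change, 2.57 ± 0.21 (limma adjusted p = 4.58e-05), from 3.79 to 7.23 FPKM in mock and 26.0 to 47.4 with BA, while its shoot groups overlapped (1.18, adjusted p = 0.161). The lowest called root changes after CAX1 were those of GH9C2 (0.63), AT5G22390 (0.77) and EDS5 (0.77).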

How the data were processed

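The deposited table held FPKM values of the authors for 33199 features in 30 libraries, built on TAIR10, per the submitters' processing notes. Which aligner and counter were run, and whether strand was used, is not given in the sources used here, and members that overlap another gene are uncertain. Names, overlaps and promoters came from the TAIR10.1 RefSeq annotation, matched for 32548 features. Each value was a whole multiple of a step (within 0.01 reads), which gave rebuilt reads for 100% of expressed features and the depths quoted. Values became log2(FPKM + 1), which understates changes of low genes, and features with 1 FPKM in at least 3 libraries of a fit were tested with limma 3.58.1 (trend, R 4.3.3) on ahp4 libraries alone. Calls were at a Benjamini-Hochberg adjusted p under 0.05 over all features tested. Errors of changes are SE. The fits were checked on simulated data. Groups follow sample titles, and numbers of replicates were not taken as pairs.

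The members and gene lists were chosen with earlier results of these data known. Named were members of the pathway lists, the 20 with a symbol highest by the smaller Col change, up to 5 called for each direction of the organ difference, those called in neither organ and those at the limit; other names were chosen after their values were seen. Tables used python 3.11.15, numpy 2.4.6 and pandas 2.3.3, and figures matplotlib 3.10.9. Alternatives were another pseudocount, scalings, filters, fits, a replicate block and each library left out.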

Additional observations from a re-analysis of the deposited data

Results flagged for a closer look

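In ahp4 root mock replicate 2 the level of ASL9 was 17.6 FPKM, far from the other 3 mock libraries at 7.88 to 8.54. In the same library MIR414 was at 353 FPKM, with the others at 182 to 200. These were the 2 groups of 68 inspected in which 1 library stood apart, and chance alone gives such a gap in about 1 group in 20. Only groups of 4 libraries can show it, so the shoot groups of ahp4 were not inspected.

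The response to BA differed between the organs of ahp4 for 9 members by limma, with root and shoot libraries taken as independent. It was larger in roots by 1.67 for AT3G57010, 1.32 for AT1G58170, 1.25 for CYP81D8, 1.21 for APT3, 1.16 for AT5G45950, 0.98 for ANNAT4 and 0.92 for AT4G13180 on the log2(FPKM + 1) scale. It was larger in shoots for CAX1 and WOL, with root minus shoot differences of -1.04 and -0.74. Over all features tested, 4.42% responded more in roots and 4.04% more in shoots, beside 12.3% and 3.51% of the members.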

How the results depend on the processing

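In both ahp4 organs every member tested had a higher mean with BA than with mock under each alternative run. The root minus shoot difference changed sign under an alternative for 8 of the 34 named members, none of them called. The count called higher in ahp4 roots was 54 or 55 under each other setting except the filter on mock libraries (43), and 51 to 55 with 1 library left out. Over all features the root calls were 1666 to 2221 under the other settings and 1400 to 2506 with 1 library left out. In shoots the member count was 24 without a filter, 28 with the filter on mock libraries, 31 with a pseudocount of 0.1 and 33 after quantile normalization. It was 34 with Col shoots in the fit, 36 after scaling by read totals, 40 in a fit of the 14 ahp4 libraries and 17 to 26 with 1 library left out. Over all features the shoot calls in these settings were, in the same order, 244, 362, 353, 374, 534, 392, 726 and 84 to 381, beside 372 in the main fit. The members with a larger response in roots were 5 to 10 and in shoots 2 to 3 with 1 library left out, and those higher in mock roots and mock shoots 30 to 32 and 17 to 19. Over all features these were 496 to 1279, 481 to 1022, 7368 to 7879 and 6168 to 6618. A pseudocount of 0.1 raised the median change to 1.53 in roots and 1.06 in shoots, as a smaller added constant must for low genes. With 1 library left out the medians were 1.10 to 1.26 and 0.89 to 0.99. Deviations of same-numbered mock and BA libraries from their group means had correlations of 0.192, -0.122, 0.022 and -0.086 in roots. In shoots these were -0.017, -0.007 and 0.142. Groups of so few libraries cannot show whether replicate numbers pair them, and same-numbered root and shoot libraries were not compared. With the replicate block 55 members were called in roots and 34 in shoots, of which 28 were among the 31. Over all features this fit called 1666 higher in roots and 327 in shoots. Limma's voom on the rebuilt reads, added after seeing the data, called 55 and 37 members, beside 2043 and 483 of all features. The planned count-model tests were not run. Depth limits the shoot values of members under 1 FPKM in mock, of which there were 5, and the 9 such members in roots.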
